A study of Mus musculus with 46 samples.

Results

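The 9 genes described here, Mrc1, Cd163, Stab1, Lyve1, Siglec1, Dab2, Pf4, F13a1 and Cbr2, are markers of perivascular macrophages, the resident macrophages that line the blood vessels at the border of the brain. They were taken by symbol from the raw count table of a microglia study, 9 of 54134 genes, and all 9 were in it. Each was followed over the 6 groups of diet and genotype, and within the 2 ranges of title number described below, as an intended measure of border cells carried along with the microglia. Whether each member's RNA came from border cells or from microglia was not tested. In the 46 libraries 8 of the 9 passed the filter on low counts, as did 12121 genes in all; Siglec1 did not and is given by its values alone.

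The study sequenced RNA from microglia of the mouse, which are the macrophages that live within the brain tissue. The AD groups were 5xFAD mice, a model of familial Alzheimer's disease whose transgenes are driven by the neuronal Thy1 promoter, and the WT groups were wild type. Each genotype was fed 1 of 3 diets: HAMSAB (a high-amylose maize starch carrying acetate and butyrate groups, which resists digestion), zero fiber, or control. The groups were HAMSAB AD with 8 libraries, zero fiber AD with 8, control AD with 8, HAMSAB WT with 8, zero fiber WT with 6 and control WT with 8, each of both sexes. The age of the mice, their time on a diet and the method of microglia isolation are not in the labels. Nor do these tie each library to its own mouse. The p-values therefore measure only the spread between these libraries, which may be technical.

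Perivascular macrophages and microglia both descend from yolk sac progenitors and share many genes, but they sit on different sides of the vessel wall's outer boundary. Perivascular macrophages are known for taking up proteins, lipids and cell debris from the fluid around vessels, and most of the markers are parts of that uptake machinery. In normal brain the parenchymal microglia carry little of Mrc1, Cd163 or Lyve1, so these transcripts in a microglial preparation are commonly read as a sign of border cells. In bulk RNA, fewer cells of a type and less RNA per cell cannot be told apart.

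The library titles carry numbers, 23 below 2900 and 22 at 2900 or above, with 1 HAMSAB AD library titled 000; what the numbers stand for is not stated. The 2 ranges are spread unevenly: HAMSAB AD had 2 libraries at 2900 or above and 5 below, zero fiber AD 4 and 4, control AD 4 and 4, HAMSAB WT 3 and 5, zero fiber WT 2 and 4, and control WT 7 and 1. Sex is spread unevenly too: at 2900 or above HAMSAB AD had 2 females, zero fiber AD 3 females and 1 male, and control AD 2 of each, and below 2900 HAMSAB AD had 1 female and 4 males, zero fiber AD 1 and 3, and control AD 2 and 2. Counts of libraries that do not overlap take no account of sex, and the fits hold it as a term. Total counts ran from 1174514 to 6950429 in 44 libraries. Another 2 libraries were shallower, at 783849 and 52114, the last being zero fiber AD male replicate 2, where 1 count was worth 15.4 CPM against 0.427 CPM at the median depth (CPM being counts scaled to a common library total). The library labelled zero fiber AD female replicate 1 had 0.212 CPM of Xist and 141 CPM of Ddx3y, which is the male pattern. These 2 doubted libraries are both zero fiber AD with titles below 2900, and results are given without them where that changes a call.

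The markers were rare beside the genes of microglia. Per kilobase of exon, the median over the 46 libraries was 18.7 CPM for Stab1, 9.99 for Pf4, 4.22 for Dab2, 3.69 for Mrc1 and 2.04 for Cbr2. It was 0.823 for Lyve1, 0.508 for F13a1, 0.352 for Cd163 and 0.206 for Siglec1, so the highest member lay 90.9-fold above the lowest. On the same per-kilobase scale the microglial genes P2ry12 and Tmem119 had medians of 2048 and 1357 CPM, and neither was below 942.8 in any library, so defining markers of the labelled cell type were there throughout. The ranges of neighbours in this order overlapped throughout, from Pf4 against Stab1 down to Siglec1 against Cd163. Stab1, Dab2 and Mrc1 were detected in all 46 libraries, whereas Lyve1 was at 0 counts in 3, Cd163 and Siglec1 in 2 each, and Pf4, F13a1 and Cbr2 in 1 each.

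**Figure D1:**
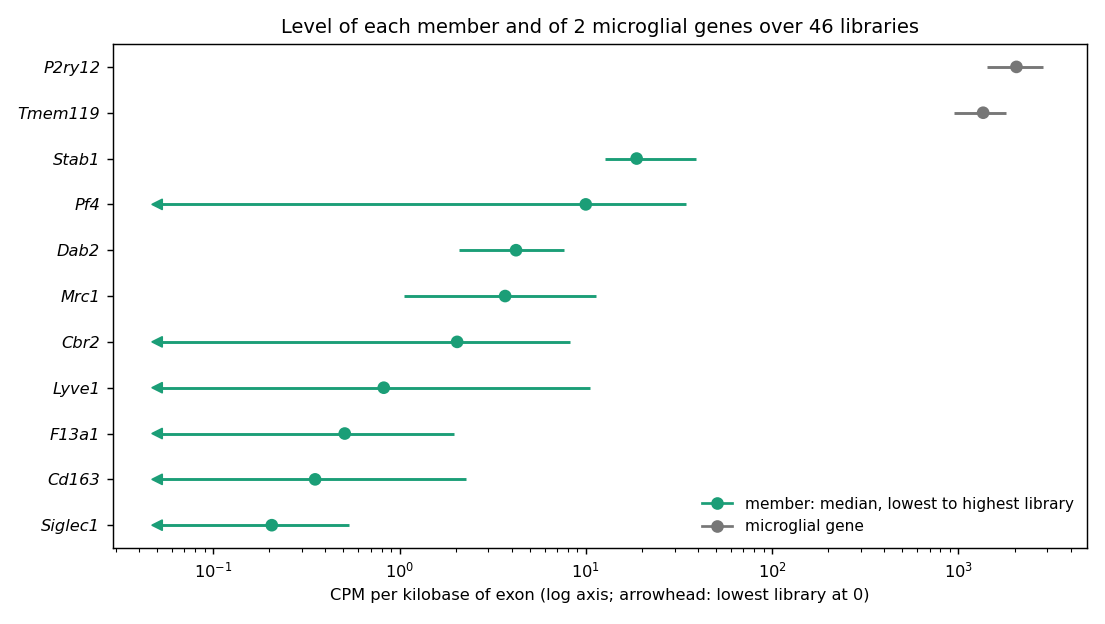
Level of each member and of 2 microglial genes in CPM per kilobase of exon (log axis), with a dot at the median of the 46 libraries and a line from the lowest to the highest library. The microglial genes lie above 942.8 in every library, and the medians of the 9 members run from 0.206 for Siglec1 to 18.7 for Stab1.

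The genes lie apart in the genome (GRCm38, GENCODE M21), so no 2 of them share a locus. Among the receptors, Mrc1 is at chr2:14229392-14332057 on the plus strand, Cd163 at chr6:124304656-124330527 (plus), Stab1 at chr14:31139013-31168641 (minus), Lyve1 at chr7:110850607-110863239 (minus) and Siglec1 at chr2:131069220-131086765 (minus). Of the others, Dab2 is at chr15:6299788-6440712 (plus), Pf4 at chr5:90772435-90773383 (plus), F13a1 at chr13:36867178-37050244 (minus) and Cbr2 at chr11:120729489-120732114 (minus). Exons of Stab1 overlap Nt5dc2, those of Dab2 overlap Gm18888 and those of F13a1 overlap Gm30489, each on the opposite strand; whether the counting used strand is not given in the sources used here, so reads of those exons may be shared.

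Promoter windows from 250 bases before to 50 after the RefSeq start (GRCm38.p6) were at hand for 7 of the 9 members, 9 windows in all. The windows of the 3 members with the smallest adjusted p for HAMSAB against control diet in AD below title 2900, described further on, the mannose receptor Mrc1, the haemoglobin scavenger Cd163 and the chemokine Pf4, are shown; F13a1, with 2 starts, and the rest are given by their counts. Capitals mark GAGGAA, the core read by the myeloid factor PU.1, here found in each case as its reverse complement TTCCTC.
Mrc1, chr2:14229164-14229463, plus strand: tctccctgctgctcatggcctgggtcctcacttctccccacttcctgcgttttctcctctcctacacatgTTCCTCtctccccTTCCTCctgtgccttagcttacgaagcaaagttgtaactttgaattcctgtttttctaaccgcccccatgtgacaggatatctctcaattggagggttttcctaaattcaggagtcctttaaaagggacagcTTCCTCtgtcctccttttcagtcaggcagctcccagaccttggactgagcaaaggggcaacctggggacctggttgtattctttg
Cd163, chr6:124304401-124304700, plus strand: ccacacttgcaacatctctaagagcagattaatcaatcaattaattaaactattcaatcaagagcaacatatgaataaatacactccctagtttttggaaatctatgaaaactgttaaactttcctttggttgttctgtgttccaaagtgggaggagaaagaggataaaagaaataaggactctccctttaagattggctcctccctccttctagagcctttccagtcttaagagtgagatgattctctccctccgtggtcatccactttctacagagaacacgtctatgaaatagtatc
Pf4, chr5:90772185-90772484, plus strand: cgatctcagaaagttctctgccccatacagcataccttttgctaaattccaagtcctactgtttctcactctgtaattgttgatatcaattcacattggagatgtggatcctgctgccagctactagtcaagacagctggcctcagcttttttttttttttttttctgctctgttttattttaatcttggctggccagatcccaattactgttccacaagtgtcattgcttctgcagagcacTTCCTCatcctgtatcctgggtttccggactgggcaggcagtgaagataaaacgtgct

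On both strands, GAGGAA was found 3 times in the Mrc1 window, 1 time in that of Pf4 and not in that of Cd163. It was in 8 of the 9 windows of members, beside 28.3% of all 32817 promoter windows of this length. TGCTGA, part of the Maf recognition element, was in 3 of the 9 (Cbr2, Stab1 and the first start of Dab2) beside 19.5% of all, and TGANTCA, the AP-1 site, was in 0 of the 9 beside 7.81% of all. None of these matches overlapped another in the windows shown, and a match is a description of letters, not of binding.

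In AD mice the fitted levels of the markers were lower on HAMSAB than on control diet, but none passed the test over all libraries. The fitted log2 fold change was below 0 for all 8 members tested, with a median of -1.27 beside 0.01 over all genes. Of the 8, 0 were called at an adjusted p under 0.05 (edgeR quasi-likelihood test, Benjamini-Hochberg over 12121 genes), where 0.0743% of all genes were. At an unadjusted p under 0.05 there were 7 of the 8. DESeq2 called 1, Pf4, beside 93 of all genes. Without a filter on low counts edgeR called 5, beside 357 of all genes: Mrc1, Cd163, Pf4, F13a1 and Lyve1. With 1 library left out, 0 to 3 were called: Mrc1, Cd163 and Pf4 without control AD female replicate 3, Mrc1 and Pf4 without control AD male replicate 4, Mrc1 without HAMSAB AD male replicate 2 and Pf4 without HAMSAB AD female replicate 2.

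**Figure D2:**
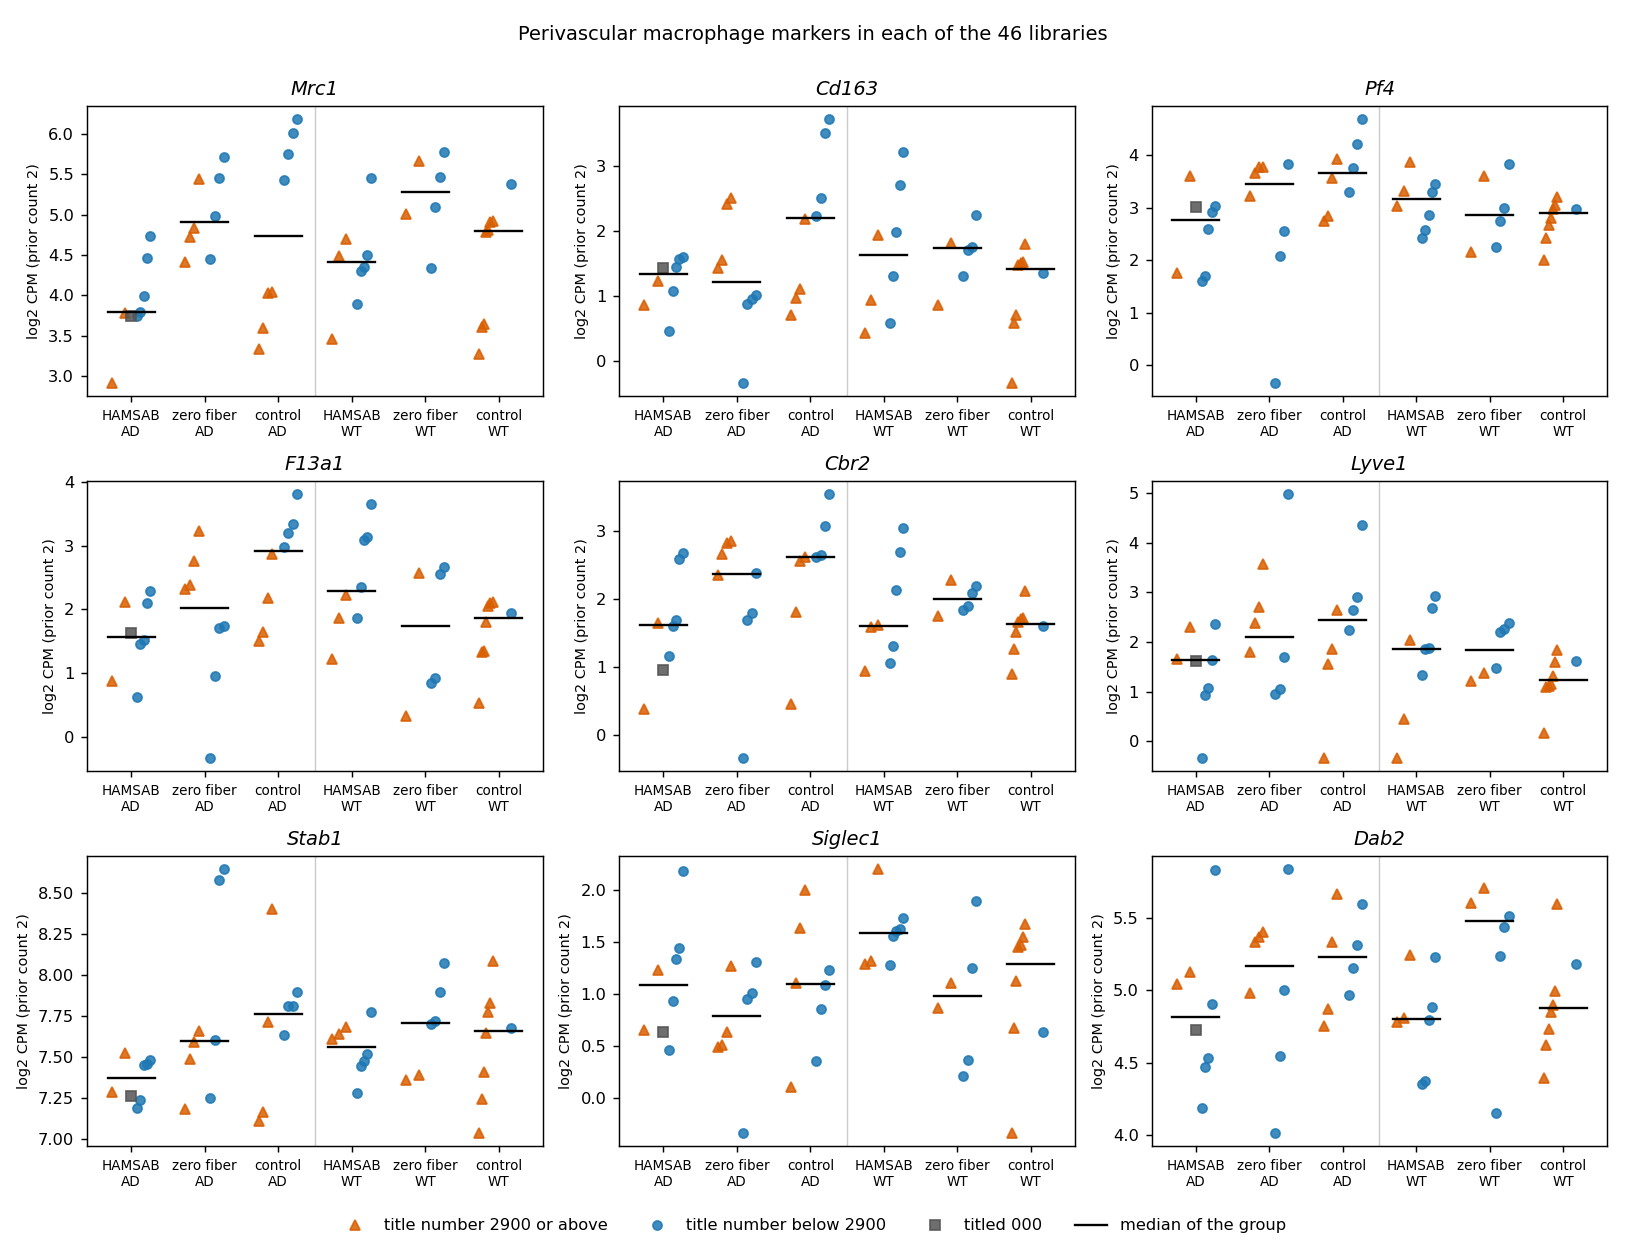
Each library's log2 CPM (prior count 2) for the 9 members in the 6 groups, with triangles for titles at 2900 or above, circles for titles below 2900, a square for the library titled 000, and a line at each group's median. In control AD, the libraries below 2900 sit above all those at 2900 or above for Mrc1, Cd163, F13a1 and Cbr2, and Siglec1 shows no such split.

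Mrc1, the mannose receptor that takes up glycoproteins, had a lowest, median and highest level of 6.73, 13.02 and 25.8 CPM in HAMSAB AD, 20.5, 29.2 and 51.9 CPM in zero fiber AD, and 9.29, 28.97 and 71.9 CPM in control AD. The HAMSAB AD range overlapped both others, and the control AD range was the widest of the 3. The HAMSAB over control log2 fold change was -1.25 ± 0.34 (SE) with an adjusted p of 0.0738. Against zero fiber AD, HAMSAB AD gave -1.11 ± 0.37 with an adjusted p of 0.22.

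Cd163, the receptor for haptoglobin bound to haemoglobin, ran from 0.583 through a median of 1.74 to 2.25 CPM in HAMSAB AD, from 0 through 1.56 to 4.93 CPM in zero fiber AD, and from 0.850 through 3.83 to 12.4 CPM in control AD. These levels rest on a median of 4.5 counts in HAMSAB AD, 4.5 in zero fiber AD and 8.5 in control AD. The fold change of HAMSAB over control was -1.67 ± 0.50, the most negative of the 8 tested, with an adjusted p of 0.102. Zero fiber over control in AD was -1.14 ± 0.51, with an adjusted p of 0.4.

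Lyve1, a receptor for hyaluronan that marks one set of perivascular macrophages, ran from 0 through 2.31 to 4.35 CPM in HAMSAB AD, from 1.15 through 3.57 to 30.7 CPM in zero fiber AD, and from 0 through 4.70 to 19.8 CPM in control AD. The 30.7 CPM was 2 counts in the shallow zero fiber library. HAMSAB over control was -1.47 ± 0.51 (adjusted p = 0.15) and HAMSAB over zero fiber was -1.13 ± 0.54 (adjusted p = 0.452).

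Stab1, the scavenger receptor stabilin-1, was the most abundant member per kilobase. It ran from 145 through 165 to 183.5 CPM in HAMSAB AD, from 145 through 193 to 399.6 CPM in zero fiber AD, and from 137 through 216 to 338 CPM in control AD. Its HAMSAB over control fold change was -0.36 ± 0.15 (adjusted p = 0.231). Siglec1, the sialic acid receptor sialoadhesin, ran from 0.583 through 1.34 to 3.76 CPM in HAMSAB AD, from 0 through 0.952 to 1.69 CPM in zero fiber AD and from 0.283 through 1.35 to 3.21 CPM in control AD. The ranges of Siglec1 overlapped in the 3 groups, and at a median of 3 counts a library over all 46 it was not tested.

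Dab2, a clathrin adaptor that carries receptors of the LDL receptor family into the cell, ran from 17.4 through 27.4 to 56.1 CPM in HAMSAB AD, from 15.4 through 35.5 to 56.4 CPM in zero fiber AD, and from 26.1 through 36.8 to 49.9 CPM in control AD. The fold change of HAMSAB over control was -0.37 ± 0.19 (adjusted p = 0.334), and it was the 1 tested member that also missed an unadjusted p of 0.05, at 0.0535.

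Pf4, a chemokine best known from platelet granules and also made by border macrophages, ran from 2.25 through 6.01 to 11.4 CPM in HAMSAB AD, from 0 through 10.2 to 13.5 CPM in zero fiber AD, and from 5.89 through 11.9 to 24.9 CPM in control AD. Its HAMSAB over control fold change of -1.28 ± 0.30 had the smallest adjusted p of the members, 0.0541. F13a1, the catalytic subunit of the clotting factor that cross-links fibrin, ran from 0.749 through 2.18 to 4.08 CPM in HAMSAB AD, from 0 through 3.35 to 8.62 CPM in zero fiber AD, and from 2.05 through 6.78 to 13.2 CPM in control AD, with a fold change of -1.54 ± 0.42 over control (adjusted p = 0.071). Cbr2, a carbonyl reductase, ran from 0.518 through 2.30 to 5.65 CPM in HAMSAB AD, from 0 through 4.38 to 6.44 CPM in zero fiber AD, and from 0.581 through 5.38 to 10.9 CPM in control AD, with a fold change of -1.12 ± 0.37 over control (adjusted p = 0.134). For all 3 the HAMSAB AD median was the lowest of the 3 AD groups, and the groups overlapped.

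Over the 8 members, HAMSAB against zero fiber in AD had a median of -0.75, all 8 lower, 4 at an unadjusted p under 0.05 and 0 called beside 0.239% of all genes. Zero fiber against control in AD had a median of -0.35, 7 lower, 1 at an unadjusted p under 0.05 and 0 called beside 0.0578%. These comparisons share their AD groups, so their values are not separate evidence. DESeq2 also called 0 in both, as it did in every other comparison given below with 0 called. With no filter on low counts edgeR called 1 for HAMSAB against zero fiber, Mrc1, beside 204 of all genes.

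The control AD group itself split by title number. Mrc1 had 15.6, 15.7, 11.3 and 9.29 CPM in the 4 control AD libraries at 2900 or above, against 42.2, 71.9, 64.0 and 53.0 CPM in the 4 below 2900. Cd163 had 0.850, 1.37, 3.75 and 1.16 CPM at 2900 or above, against 3.91, 12.4, 10.7 and 4.91 CPM below. Every library at 2900 or above was lower than every library below for both genes, as for F13a1 (2.05 to 6.51 CPM, against 7.04 to 13.2 CPM) and Cbr2 (0.581 to 5.36 CPM, against 5.402 to 10.9 CPM). That makes 4 of the 9 members, beside 2.38% of all genes tested that were lower in the same way. Pf4 (5.89 to 14.3 CPM, against 8.99 to 24.9 CPM), Lyve1, Stab1, Siglec1 and Dab2 overlapped.

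Title range was next fitted as 1 term over all groups, with diet, genotype and sex held. Mrc1 was lower at 2900 or above than below by a log2 fold change of -0.84 ± 0.22 (adjusted p = 0.0449). It was the 1 member called of 8, where 0.396% of 12118 genes were called lower, and 3 were at an unadjusted p under 0.05. The call ended in 24 of the 45 fits that left out 1 library, with an adjusted p of 0.115 at the highest, and without both doubted libraries (adjusted p = 0.0829). Cd163 at -0.79 ± 0.37 and Lyve1 at -0.65 ± 0.37 did not pass, with adjusted p of 0.277 and 0.371. The median of the 8 was -0.54. The Mrc1 medians of the groups differed in size and direction. In control AD they were 13.4 CPM at 2900 or above and 58.5 CPM below, in zero fiber AD 26.65 and 36.8 CPM. They were 9.835 and 15.2 CPM in HAMSAB AD, and 26.7 and 40.9 CPM in control WT, with 1 library below. In HAMSAB WT they were 21.6 and 19.6 CPM, and in zero fiber WT 40.6 and 38.3 CPM. In the title range contrast all 12 microglial genes listed had a fold change above 0, with a median of 0.13. Of them 1 was called, P2ry13, where 61 of 12118 genes were called higher. The part of the microglial genes in the members' result was not tested.

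Among libraries at 2900 or above, no difference between HAMSAB AD and control AD was detectable in the members, with 2 libraries against 4. Mrc1 had 12.9 and 6.73 CPM in HAMSAB AD, against the control AD values given above, a fold change of -0.41 ± 0.53 (adjusted p = 0.993). Farthest from 0 was Cbr2, with 2.35 and 0.518 CPM in HAMSAB AD and a fold change of -1.36 ± 0.69 (adjusted p = 0.975). These values turn on single HAMSAB libraries: without female replicate 2 Mrc1 stood at -1.003 and Cbr2 at -2.84, and without female replicate 3 Mrc1 stood at -0.07 and Cbr2 at -0.77. Of the 8 members 7 were lower, their median was -0.43 (-0.91 without female replicate 2 and -0.25 without female replicate 3), and 0 were called, as were 0% of all genes, with 0 also at an unadjusted p under 0.05.

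Among libraries below 2900, 4 of the 8 members were called lower in HAMSAB AD than in control AD: Mrc1, Cd163, Pf4 and F13a1. All 8 had a fold change below 0, with a median of -1.68 beside 0.02 over all genes, and 0.124% of 12118 genes were called lower. At an unadjusted p under 0.05 there were 6. Mrc1 had 21.3, 12.6, 25.8, 15.2 and 13.1 CPM in the 5 HAMSAB AD libraries, against 42.2, 71.9, 64.0 and 53.0 CPM in the 4 control AD libraries, a fold change of -1.64 ± 0.32 (adjusted p = 0.0185). The groups stood apart, with the highest HAMSAB library below the lowest control library.

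Cd163 had 2.17, 1.94, 1.32, 0.583 and 2.25 CPM in HAMSAB AD below 2900, against 3.91, 12.4, 10.7 and 4.91 CPM in control AD, and was lower by 2.19 ± 0.53 on the log2 scale (adjusted p = 0.0475). Pf4 had 7.39, 6.77, 2.45, 5.25 and 2.25 CPM in HAMSAB AD, against 8.99, 24.9, 17.7 and 12.8 CPM in control AD, and was lower by 1.72 ± 0.37 (adjusted p = 0.0475). F13a1 had 3.48, 1.94, 2.07, 4.08 and 0.749 CPM in HAMSAB AD, against 7.04, 13.2, 9.33 and 8.35 CPM in control AD, and was lower by 1.88 ± 0.46 (adjusted p = 0.0478). For these genes, too, no HAMSAB library reached the lowest control library, and control AD female replicate 2 was the highest of the control libraries.

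The other members did not pass. Lyve1 had 4.35, 0, 1.32, 2.33 and 1.12 CPM in HAMSAB AD below 2900, against 5.47, 19.8, 6.66 and 3.93 CPM in control AD, a fold change of -2.23 ± 0.58 (adjusted p = 0.0633). Cbr2 stood at -1.09 ± 0.41 (adjusted p = 0.202), Stab1 at -0.38 ± 0.20 (adjusted p = 0.402) and Dab2 at -0.34 ± 0.25 (adjusted p = 0.56). Stab1, beside the 4 called, was the other member without overlap, at 145 to 178 CPM in HAMSAB AD, against 197 to 238 CPM in control AD. That makes 5 of the 9 members, beside 2.12% of all genes tested.

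Most of these calls lie close to the threshold. DESeq2 called Mrc1, Pf4, F13a1 and Lyve1, and gave no adjusted p for Cd163. Without both doubted libraries, which are in neither group, Mrc1 alone was called; Pf4, Cd163 and F13a1 had adjusted p of 0.0514, 0.0542 and 0.0542 at fold changes of -1.71, -2.19 and -1.89. Without control AD female replicate 2, control AD male replicate 1 or HAMSAB AD male replicate 4 none was called, with Mrc1 at adjusted p of 0.139, 0.161 and 0.0501. Leaving out HAMSAB AD female replicate 1 or male replicate 3 left Mrc1 alone, leaving out HAMSAB AD male replicate 1 or 2 left Mrc1 and Pf4, and leaving out control AD male replicate 2 lost F13a1 (adjusted p = 0.0524). Over the 9 fits without 1 library, Mrc1 was called in 6, Pf4 in 4, Cd163 in 2 and F13a1 in 1. The fold changes of those 4 genes kept their direction in all 12 alternatives.

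**Figure D3:**
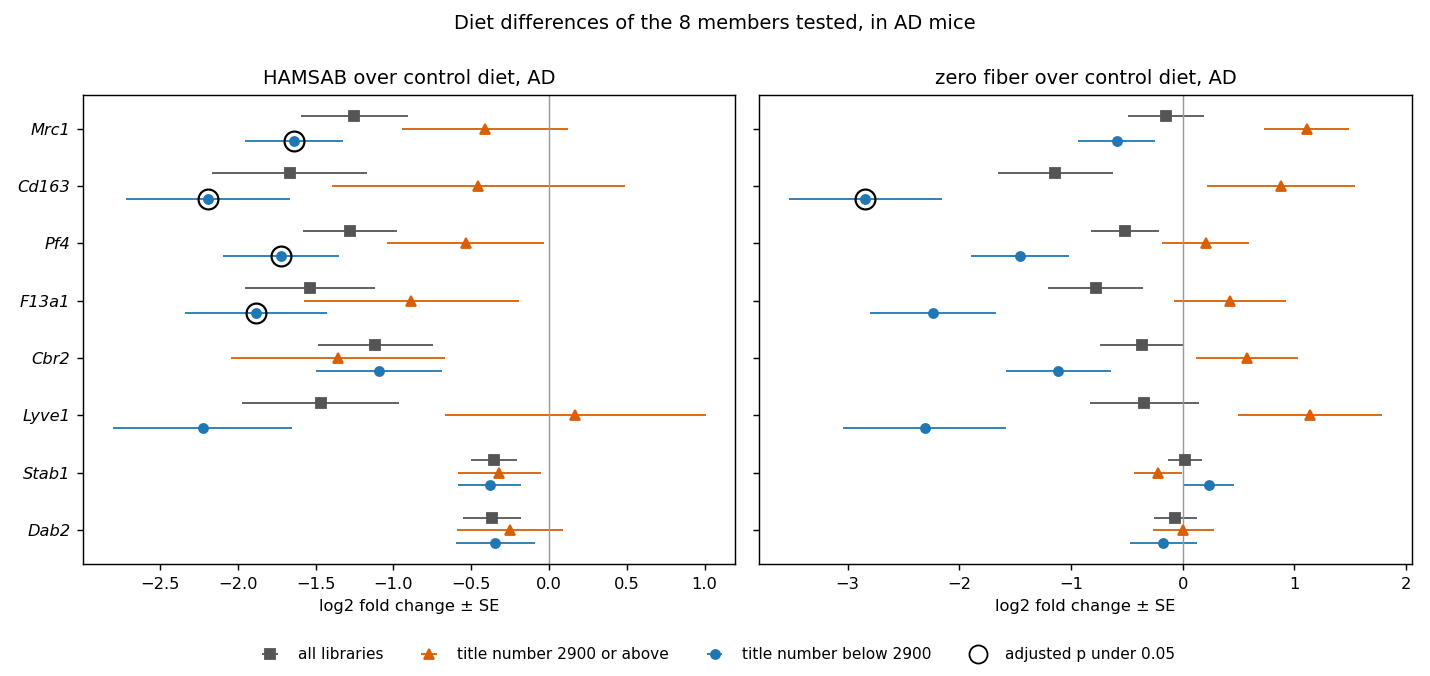
Log2 fold change with its standard error for the 8 members tested, HAMSAB over control diet (left) and zero fiber over control diet (right) in AD mice, over all libraries (squares), titles at 2900 or above (triangles) and titles below 2900 (circles), with open rings for an adjusted p under 0.05. The rings are on Mrc1, Cd163, Pf4 and F13a1 on the left and on Cd163 on the right, all for titles below 2900.

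Whether the HAMSAB over control difference itself depended on the title range was tested as an interaction, the fold change at 2900 or above minus that below. It was above 0 for 7 of the 8 members, with a median of 1.09, 1 at an unadjusted p under 0.05 and 0 called, beside 0% of all genes. Lyve1 had 2.40 ± 1.05 and Mrc1 1.23 ± 0.63, each with an adjusted p of 1. The median was 0.04 without HAMSAB AD female replicate 2 and 1.55 without female replicate 3, and a difference between the ranges is not shown. Set against zero fiber, HAMSAB AD had all 8 members lower at 2900 or above, with a median of -1.14, 2 at an unadjusted p under 0.05 and 0 called beside 0% of all genes. Below 2900 it had 4 higher and 4 lower, with a median of -0.08, which turned to as much as 0.21 without 1 of 3 single libraries, 2 at an unadjusted p under 0.05 and 0 called beside 0.033%. The interaction of that difference with title range was below 0 for 7 of the 8 members, with a median of -0.76, or -1.49 without HAMSAB AD female replicate 2 and -0.45 without female replicate 1. It had 1 at an unadjusted p under 0.05, Cbr2 at -1.95 ± 0.83 (adjusted p = 1), and 0 called beside 0.00825%.

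Zero fiber against control in AD pointed in opposite directions in the 2 ranges for most members. At 2900 or above 7 of the 8 were higher on zero fiber, with a median of 0.50, 1 at an unadjusted p under 0.05 and 0 called beside 0.0413% of all genes. Mrc1 had 27.7, 25.7, 20.5 and 42.5 CPM in zero fiber AD, against 15.6, 15.7, 11.3 and 9.29 CPM in control AD, without overlap, a fold change of 1.11 ± 0.38 (adjusted p = 0.65). It was the 1 member of 9 wholly higher on zero fiber, beside 1.76% of all genes tested.

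Below 2900, 7 of the 8 were lower on zero fiber than on control diet, with a median of -1.28, 5 at an unadjusted p under 0.05 and 1 called lower, Cd163, beside 0.124% of all genes. DESeq2 called 2, Cd163 and F13a1. Cd163 had 1.06, 1.23, 0 and 1.15 CPM in zero fiber AD, the 0 being the library of 52114 counts, against 3.91, 12.4, 10.7 and 4.91 CPM in control AD, and was lower by 2.84 ± 0.68 (adjusted p = 0.0483). The zero fiber values rest on 9 counts summed, at a median of 2 a library. Male replicate 1 of this group is the library of 783849 counts. F13a1 at -2.23 ± 0.56 (adjusted p = 0.0575), Lyve1 at -2.31 ± 0.73 (0.135), Pf4 at -1.46 ± 0.44 (0.123), Cbr2 at -1.11 ± 0.47 (0.293) and Mrc1 at -0.59 ± 0.35 (0.49) did not pass. Cd163, F13a1 and Cbr2, 3 of the 9, were lower without overlap, beside 3.75% of all genes tested. In the library of 52114 counts these genes are at 0, and a single count there would have stood at 15.4 CPM. Without that library 4 of the 9, Lyve1 being the other, were lower without overlap, beside 5.54% of all genes tested.

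The Cd163 call also rests on single libraries. Of the 4 zero fiber AD libraries below 2900, 2 are the doubted ones, and without both Cd163 stood at -2.61 with an adjusted p of 0.214. It was lost as well without zero fiber AD female replicate 1 (0.208), male replicate 1 (0.0658) or male replicate 3 (0.105), and without control AD female replicate 2 (0.184) or male replicate 1 (0.18). The interaction of this diet difference with title range was above 0 for 7 of the 8, with a median of 1.69 and 0 called beside 0.0495% of all genes. Cd163 had 3.72 ± 0.96 (adjusted p = 0.235), Lyve1 3.45 ± 0.97 (0.268), F13a1 2.66 ± 0.76 (0.268) and Mrc1 1.70 ± 0.52 (0.373). At an unadjusted p under 0.05 there were 6 of the 8.

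In WT mice none of the members was called between HAMSAB and control diet. On HAMSAB 5 of the 8 were higher, with a median of 0.44, 1 at an unadjusted p under 0.05 and 0 called beside 0.281% of all genes, and F13a1 was farthest at 1.18 ± 0.43 (adjusted p = 0.195). F13a1 ran from 1.53 through 4.08 to 11.8 CPM in HAMSAB WT, against 0.652, 2.86 and 3.55 CPM as lowest, median and highest in control WT. With a term for title range, F13a1 was at 0.86. At 2900 or above, with 3 libraries against 7, it was at 0.23 ± 0.61 (adjusted p = 0.975), and 3 of the 8 members were higher there, with a median of -0.08, 0 at an unadjusted p under 0.05 and 0 called beside 0% of all genes. In a fit of the HAMSAB WT and control WT libraries alone the median was -0.05, over the 5 members that passed the filter. As it covers fewer members, that value cannot be set against the median of the 8. The higher median over all libraries was not seen at 2900 or above. Below 2900, where control WT has 1 library, the contrast was not made. Mrc1 ran from 10.2 through 20.6 to 43.04 CPM in HAMSAB WT, from 19.5 through 38.3 to 54.2 CPM in zero fiber WT, and from 8.90 through 26.9 to 40.9 CPM in control WT.

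HAMSAB against zero fiber in WT had 5 of the 8 lower, a median of -0.08 that turned to as much as 0.09 without 1 of 3 single libraries, 2 at an unadjusted p under 0.05 and 0 called beside 2.19% of all genes; Mrc1 was at -0.89 ± 0.37 (adjusted p = 0.269) and Dab2 at -0.55 ± 0.21 (adjusted p = 0.195). Dab2 was called without zero fiber WT female replicate 2, at -0.68 (adjusted p = 0.0437). Zero fiber against control in WT had all 8 higher, a median of 0.51, 2 at an unadjusted p under 0.05 and 0 called beside 0.00825%. Mrc1 was at 0.78 ± 0.36 (adjusted p = 0.612), and at 0.33 with a term for title range. At 2900 or above, with 2 libraries against 7, Mrc1 was at 0.94 ± 0.39 (adjusted p = 0.277), the median of the 8 was 0.13, and 1 was at an unadjusted p under 0.05 and 0 called beside 0.272% of all genes. Within titles at 2900 or above the HAMSAB against zero fiber median in WT was -0.24 (0.07 without HAMSAB WT female replicate 3), with 1 at an unadjusted p under 0.05 and 0 called beside 0.0743% of all genes. Below 2900 4 of the 8 were higher and 4 lower, with 2 at an unadjusted p under 0.05 and 0 called beside 1.91%. The interaction between the ranges had 0 at an unadjusted p under 0.05 and 0 called beside 0.033%.

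Between the genotypes, the members were higher in AD than in WT on control diet in the fit, without passing the test. All 8 members were higher in control AD than in control WT, with a median of 1.25, but 0 were called, as were 0% of all genes, and 5 passed an unadjusted p of 0.05. Cd163 was at 1.73 ± 0.50, Lyve1 at 1.71 ± 0.51, F13a1 at 1.55 ± 0.42, Cbr2 at 1.37 ± 0.38 and Pf4 at 1.14 ± 0.30, each with an adjusted p of 0.835. Mrc1 was at 0.67 ± 0.33 (adjusted p = 0.908), and at 0.21 once a term for title range was added.

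The title ranges run through this contrast as well. At 2900 or above, Mrc1 ran from 9.29 to 15.7 CPM in 4 control AD libraries, against 8.90 to 29.5 CPM in 7 control WT libraries, and Cd163 from 0.850 to 3.75 CPM, against 0 to 2.69 CPM. Pf4 there ran from 5.89 to 14.3 CPM in control AD, against 3.23 to 8.42 CPM in control WT. In the fit at 2900 or above 7 of the 8 members were higher in control AD, with a median of 0.45, 0 at an unadjusted p under 0.05 and 0 called beside 0% of all genes. Mrc1 was the exception, at -0.65 ± 0.35 (adjusted p = 1), opposite in sign to its value over all libraries. Cd163 was at 0.08 ± 0.66 and F13a1 at 0.78 ± 0.49, each with an adjusted p of 1. Below 2900 a single control WT library had 40.9 CPM of Mrc1, 1.77 CPM of Cd163 and 7.06 CPM of Pf4. The 4 control AD libraries there ran from 42.2 to 71.9 CPM, 3.91 to 12.4 CPM and 8.99 to 24.9 CPM. F13a1, Cbr2 and Lyve1 were also lower in it than in those 4, whereas Stab1, Siglec1 and Dab2 lay within their ranges. With 1 library no test within that range was made, and the share of all genes so placed was not counted.

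On zero fiber the genotypes had a median of 0.14, 4 members higher and 4 lower, 0 at an unadjusted p under 0.05 and 0 called beside 0.00825% of all genes. The median was -0.15 without zero fiber AD male replicate 4. With no filter on low counts it was -0.03, but over 9 members, as Siglec1 then entered. On HAMSAB 7 of the 8 were lower in AD, with a median of -0.52, 1 at an unadjusted p under 0.05 and 0 called beside 1.68%, and F13a1 was farthest at -1.16 ± 0.43 (adjusted p = 0.191). The HAMSAB over control difference in AD minus that in WT was below 0 for all 8, with a median of -1.64, 6 under an unadjusted p of 0.05 and 0 called beside 0% of all genes. F13a1 stood at -2.72 ± 0.60 (adjusted p = 0.28), Cd163 at -2.53 ± 0.75 (0.621), Lyve1 at -2.36 ± 0.74 (0.773) and Pf4 at -1.70 ± 0.44 (0.57). Over the alternatives the median ran from -1.85 to -1.42. At 2900 or above the HAMSAB over control median was -0.43 in AD and -0.08 in WT. There F13a1 was at -0.88 in AD and 0.23 in WT, Cd163 at -0.45 and -0.16, Lyve1 at 0.17 and -0.24, and Pf4 at -0.54 and 0.70. The AD minus WT difference was not tested within a title range. The AD minus WT medians over all libraries were -0.70 for HAMSAB against zero fiber and -0.95 for zero fiber against control, with 1 at an unadjusted p under 0.05 and 0 called in each, beside 1.08% and 0% of all genes. Females against males gave a median of 0.27 over the 8, 2 at an unadjusted p under 0.05 and 0 called beside 0.124%, with Pf4 at 0.51 ± 0.19 (adjusted p = 0.29) and Dab2 at 0.29 ± 0.11 (adjusted p = 0.317).

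Across libraries most pairs of members rose and fell together to a modest degree. As a description over libraries that share depth differences and groups, the 36 pairs had a median Spearman rho of 0.375 over the 46 libraries, from -0.314 to 0.644. F13a1 with Pf4 (0.644) and with Cbr2 (0.642) were the closest pairs. Siglec1 had a median rho of -0.19 with the other members, the lowest of the 9, and Stab1 had 0.178, the next. Without both doubted libraries the median over all pairs was 0.388. It was 0.222 in the 22 libraries at 2900 or above and 0.421 in the 23 below. At 2900 or above the median rho with the other members was 0.068 for Cd163, 0.007 for Stab1 and -0.427 for Siglec1.

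**Figure D4:**
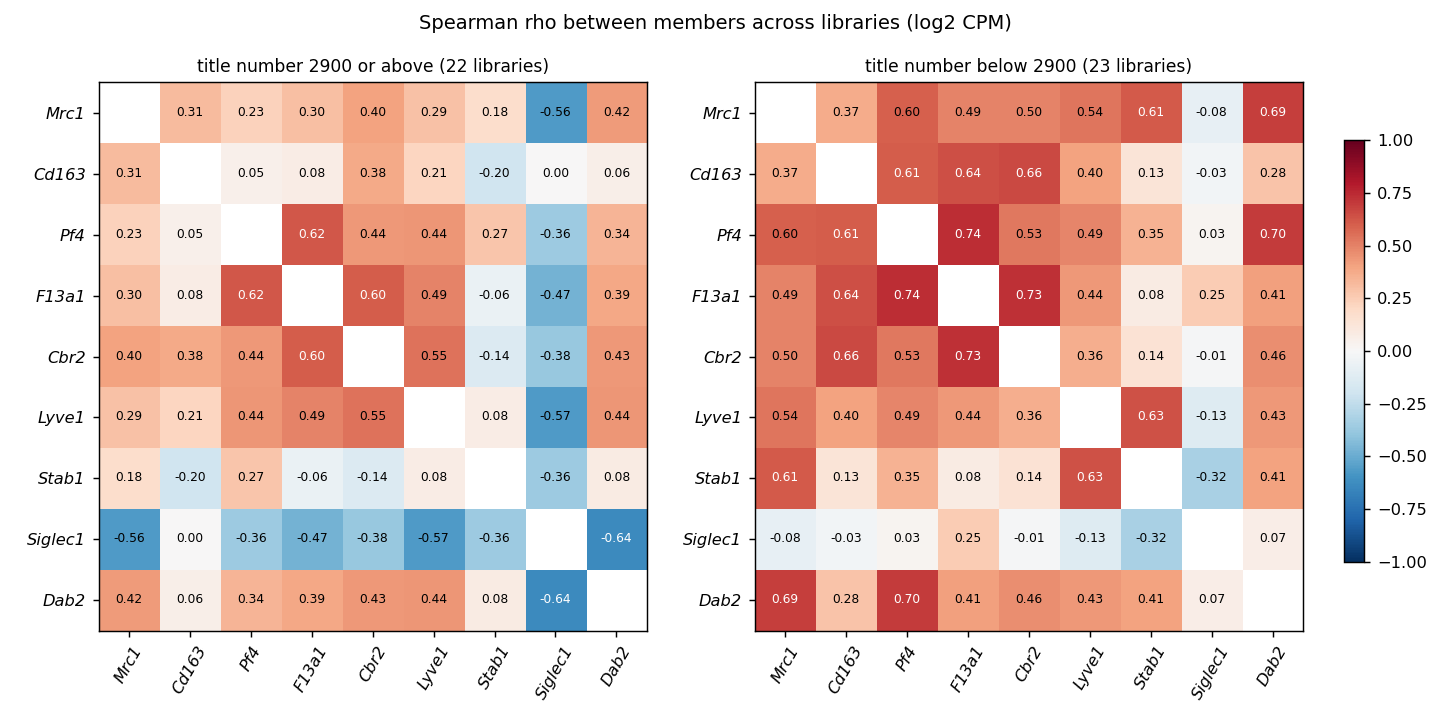
Spearman rho between each 2 members over the 22 libraries with titles at 2900 or above (left) and the 23 with titles below 2900 (right), from log2 CPM. F13a1 with Pf4 reaches 0.621 on the left and 0.742 on the right, and the median rho of Siglec1 with the others is -0.427 on the left and -0.02 on the right.

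By a score averaging the 9 standardized members, the gene most like them of 10159 compared was Cd209f, a C-type lectin receptor of the DC-SIGN family, at a rho of 0.711 (Pearson r 0.719) over the 46 libraries. It ranked 5 at 2900 or above (rho 0.71) and 1 below 2900 (0.745), and 1 again without both doubted libraries. Next came Faap100 (0.596), Celf3 (0.586), Mrps5 (0.561), the C-type lectin Clec4a1 (0.561), Smpd3 (0.556), Gpx3 (0.552), Igf1r (0.538), Rbpj-ps3 (0.527) and Nom1 (0.519). Of these 10, 8 were again in the first 10 without both doubted libraries, but 2 were within titles at 2900 or above and 2 within titles below 2900. The median rho over all genes compared was 0.015.

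A wider list of 30 other genes reported in border macrophages was read beside the members. Of these 18 passed the filter, and several are abundant in these libraries overall: Hpgd had a median of 1724 CPM, Maf of 1211 and Ltc4s of 707. Others were nearly absent, with Vsig4 at 0 counts in all 46 libraries and Folr2 in 43. On HAMSAB against control in AD 13 of the 18 were lower, with a median of -0.11 and 0 called, and below 2900 12 were lower, with a median of -0.10 and 0 called. Below 2900 Cd209f was at -2.19 ± 0.60 (adjusted p = 0.0829) and Ms4a7, named after its values were seen, at -1.54 ± 0.55 (adjusted p = 0.184). Hpgd stood above 0 there, at 0.29 ± 0.16 (adjusted p = 0.429), as did Ltc4s at 0.22 ± 0.15 (adjusted p = 0.524). As Cd209f was the gene most like the members over these same libraries, its direction is not separate evidence.

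On zero fiber against control in AD below 2900, 1 of the 18 was called lower, Cd209f, beside 0.124% of all genes. It was at -3.70 ± 0.84 (adjusted p = 0.0442), with Ms4a7 at -1.78 ± 0.67 (adjusted p = 0.222). Others of the 18 stood above 0, such as Ccl24 at 0.85 ± 0.32 (adjusted p = 0.218) and Ltc4s at 0.34 ± 0.16 (adjusted p = 0.379). Cd209f had 0.635, 0, 0 and 0 CPM in zero fiber AD, against 5.08, 7.62, 3.67 and 3.44 CPM in control AD, so the fitted value rests on 3 counts in the zero fiber libraries. The 3 counts were all in the doubted female replicate 1. Without both doubted libraries, or without female replicate 1 alone, zero fiber AD is at 0 counts below 2900 and the fitted value, -6.29 or -6.25, is no measure of size; the adjusted p was 0.121 or 0.125. It was also above 0.05 without any 1 of 4 other single libraries. At 2900 or above Cd209f lay in the other direction, at 3.41, 3.17, 4.86 and 3.69 CPM in zero fiber AD. In control AD it had 2.55, 2.05, 0.536 and 0 CPM there.

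Markers of other cells were read in the same contrast, HAMSAB against control in AD below 2900. The 12 microglial genes summed to 28380 to 36220 CPM in HAMSAB AD, against 32110 to 35190 CPM in control AD, with 6 lower, a median of -0.04 and 0 called. Of 10 monocyte genes 3 were tested and 0 called, with sums of 107.8 to 141.7 CPM in HAMSAB AD, against 99.0 to 161 CPM in control AD. Of 10 genes of dendritic cells and class II presentation 5 were tested and 1, H2-Ab1, was called higher, where 27 of 12118 genes were. Their sums were 72.3 to 92.8 CPM in HAMSAB AD, against 44.97 to 65.3 CPM in control AD. Of 10 endothelial genes 4 were tested and 0 called, with sums of 50.8 to 118 CPM in HAMSAB AD, against 39.98 to 126.5 CPM in control AD. Of 11 pericyte and fibroblast genes 3 were tested and 0 called, with sums of 0.583 to 7.82 CPM in HAMSAB AD, against 3.44 to 8.66 CPM in control AD. The 8 oligodendrocyte genes, 5 of them tested, summed to 191.8 to 252.1 CPM in HAMSAB AD, against 163.8 to 190.8 CPM in control AD, without overlap, and all 5 had a fold change above 0. The 6 neuronal genes summed to 7.11 to 30.5 CPM in HAMSAB AD, against 3.30 to 12.3 CPM in control AD, the 8 astrocyte genes to 218 to 369 CPM, against 313 to 387 CPM, and the 9 red blood cell and choroid plexus genes to 185 to 330 CPM, against 54.6 to 311 CPM. In these and the remaining lists, of neutrophils, lymphocytes, astrocytes, oligodendrocytes, neurons, red blood cells with choroid plexus, other scavenger receptors and macrophages of all kinds, 0 genes were called. The monocyte, endothelial and astrocyte sums are each mostly 1 gene, and so are not a level of those cells. By median over the 46 libraries these were Lyz2 at 133.1 CPM, with Ccr2 next at 4.35, and Pecam1 at 72.8, with Kdr next at 7.60. In the astrocyte list Slc1a3 was at 241.9 CPM, with Slc1a2 next at 8.21. The 9 members themselves summed to 189 to 276 CPM in HAMSAB AD, against 317 to 431 CPM in control AD. Most of that sum is Stab1, at 145 to 178 CPM in HAMSAB AD, against 197 to 238 CPM in control AD, which was not called. The part of any other cell type in the members' differences was not tested.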

How the data were processed

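RNA of mouse microglia was extracted with RNeasy Micro on a QIAcube and sequenced as standard Illumina libraries, per the labels' protocols. The authors deposited raw counts per gene for 46 libraries; STAR 2.5.2b, featureCounts 1.5.2 and the GRCm38 (mm10) build are named in the submitters' processing notes. For the annotation release, the strand setting and multi-mapping reads, the sources used here give nothing. Counts were scaled to CPM by TMM (factors 0.918 to 1.25) and filtered on low counts by group. All genes were then fitted with edgeR 4.0.16 (quasi-likelihood test, limma 3.58.1, R 4.3.3), with Benjamini-Hochberg adjustment over all genes tested and a threshold of 0.05.

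One fit had the 12 groups of diet, genotype and sex over 46 libraries, with the sexes averaged. Another had a term for title range, and another had diet, genotype and title range as cells plus sex; both leave out the library titled 000, so 45 libraries enter. In all, 26 contrasts were tested, and 3 of control WT at 2900 or above were added after seeing the data. The error of a fold change is a standard error, and DESeq2 1.42.0 was an alternative. Other alternatives were its size factors, no filter on low counts, only the libraries compared, leaving out both doubted libraries and leaving out each library in turn. The scripts were tested on simulated data.

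All 9 members are named throughout. The genes most like them are the 10 with the highest Spearman rho to the mean of the standardized members, among tested genes whose mean log2 CPM reached 1 and whose name is not that of a predicted gene. Of the other lists, the most abundant genes and any called gene are named, except 1 gene that is not reported here. The members and lists were chosen with earlier results of these data known. No 2 libraries were identical, and replicates differed beyond sampling noise. Exon lengths are from GENCODE M21.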

Additional observations from a re-analysis of the deposited data

Results flagged for a closer look

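Over the 9 members in the 6 groups, 4 of 54 sets had a library whose gap to the nearest other library, as a share of the set's range on the log2 CPM scale, passed Dixon's 95% critical value, and chance alone gives about 1 in 20 such sets. In zero fiber AD, male replicate 2 was lowest for Pf4, with 0 CPM against 3.44 to 13.5 CPM in the other 7 libraries, and for Cbr2, with 0 CPM against 2.45 to 6.44 CPM. That is the library of 52114 counts, in which 1 count is worth 15.4 CPM. In control WT, male replicate 3 was lowest for Lyve1, with 0.326 CPM from 1 count, against 1.35 to 2.78 CPM. In zero fiber WT, female replicate 2 was lowest for Dab2, the endocytic adaptor, with 16.96 CPM from 34 counts, against 36.9 to 51.4 CPM. Dab2 had no other library of that group below 36.9 CPM.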

How the results depend on the processing

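Of 560 counts of members called under an alternative, 505 stayed within 1.5 times of the count given and 55 did not. Among named fold changes of members, 1 turned its direction: Mrc1 in AD against WT on control, at -0.65 with only titles at 2900 or above, an alternative chosen after seeing the data. Medians of the members that turned sign are given beside them, and those of HAMSAB against zero fiber in WT below 2900 lay near 0 throughout (-0.23 to 0.16). With no filter on low counts edgeR called 1 member for HAMSAB against zero fiber in AD, 5 for HAMSAB against control in AD, 2 for HAMSAB against zero fiber in WT, 1 for HAMSAB against control in WT and 1 for zero fiber against control in WT. In that order it called 204, 357, 505, 433 and 183 of all genes, against 29, 9, 265, 34 and 1 with the filter. The same setting called 6 members for AD against WT on control, 1 on HAMSAB, 5 for the HAMSAB over control difference in AD minus WT and 1 for the zero fiber over control difference. Of all genes it called 149, 464, 66 and 207 in these, against 0, 204, 0 and 0 with the filter. The cause was not tested. DESeq2 called 1 for HAMSAB against control in AD and 2 for zero fiber against control in AD below 2900. Without both doubted libraries, 1 was called for HAMSAB against control in AD below 2900, 0 for zero fiber against control there and 0 for title range. With 1 library left out the counts ran from 0 to 3 for HAMSAB against control in AD, 0 to 5 for the same below 2900, 0 to 2 for zero fiber against control in AD below 2900, 0 to 1 for HAMSAB against zero fiber in WT and 0 to 1 for title range. Over all genes, the 9 called for HAMSAB against control in AD became 357 with no filter and 93 with DESeq2, and 1 to 106 with 1 library left out. The 42 below 2900 became 110 with DESeq2, 8 without both doubted libraries and 1 to 150 with 1 left out. The 46 for zero fiber against control in AD below 2900 became 132 with DESeq2, and the 109 for title range became 253. No paired analysis was possible because replicate numbers were given in accession order and pair no samples. Depth limits Siglec1, Cd163, Lyve1, F13a1 and Cbr2 most, at medians of 3, 5, 6, 7.5 and 7.5 counts a library.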
